A study of Mus musculus with 4 samples.

Results

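Serpins are a superfamily of proteins that share one fold, and most of them inhibit serine or cysteine proteases. A typical serpin presents a flexible reactive centre loop as bait, and cleavage of that loop collapses the fold and traps the protease in a covalent complex. The letter after the name gives the clade. Clade A holds mostly secreted plasma proteins, clade B intracellular inhibitors, and some members of the other clades, such as Serpinf1 and Serpinh1, inhibit no protease. In vessel walls the family is known for control of plasmin, thrombin and complement and, through Serpinf1, for restraint of vessel growth.

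The serpins described here are all genes whose symbol on the array platform starts with Serpin followed by a letter from a to i. There were 40 such genes among 18194 measured, read by 56 probe sets that carry 1 symbol each. Clade A had 14 members, clade B 18, clades F and I 2 each, and clades C, D, G and H 1 each. Clade E, which holds plasminogen activator inhibitors, was not analysed here. Another 3 probe sets carry several serpin symbols and were not assigned to a gene, and their levels lay between 2.94 and 4.23. Values are log2 levels, so a difference of 1 is 2-fold, and they do not rank one gene against another because probes differ in brightness.

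The series measured messenger RNA of SVEC4-10 cells, a mouse endothelial line immortalised with SV40, on 4 arrays in 4 groups. The untreated cells received no vector. The vector cells carried the insert-free pLENTI6/Block-iT lentivirus, and the remaining groups carried the same backbone with a hairpin RNA that targets Mical2 or Mical3. All transduced cells were selected with blasticidin. Each group had 1 array, which held a pool of 3 biological replicates. The spread between replicates is therefore hidden, and no test was possible. In such pools, fewer cells of a type and less RNA per cell cannot be told apart.

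Over the whole table the array medians lay between 5.40 and 5.44. Neither targeted gene was lowest on the array of its own label. The 2 Mical2 probe sets read 5.53 and 5.53 on the Mical2-labelled array, 4.64 and 5.14 in vector cells, 5.33 and 5.60 in untreated cells and 6.0 and 6.08 on the Mical3-labelled array. Mical3 read 7.24 on its own array and 6.83, 7.29 and 7.39 on the Mical2-labelled, vector and untreated arrays. Its own array thus lay under both controls, by less than 2-fold. The hairpin arrays are therefore named by label only, and every direction is one between labelled arrays. Of 10 endothelial markers, Pecam1, Cdh5, Tek, Tie1, Emcn and Erg lay below the floor of 5.41 on all 4 arrays. Kdr (5.72 to 5.95) and Esam (5.61 to 6.05) lay close above it, and Eng (7.31 to 7.58) and Egfl7 (6.93 to 7.24) further above. Of 7 mesenchymal markers 6 lay at or above it on some array. The endothelial label was therefore not matched by Pecam1 and Cdh5, which encode defining junction proteins of that cell type.

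The floor was the median of the table, 5.41, and a gene was called higher or lower when it differed by 2-fold or more and its higher level was not below that floor. Against the controls, a hairpin array had to differ from both in the same direction. Of the 40 serpins, 18 reached the floor on some array and 14 on all 4. Serpina10 and Serpinb1b reached it through the Mical2-labelled array alone, so their presence among the 18 follows from their level there. The 4 comparisons share arrays, and calls in one are not independent of calls in another.

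Promoters are shown for 3 of the serpins on which the comparisons turn. Of the 40 members 34 had an entry in RefSeq's promoter table (GRCm38.p6), 16 of the 18 that reached the floor among them. Each line gives the 250 bases before the annotated start, read in the direction of the gene. Capitals mark matches, on either strand, to TATAAA (the TATA box), TGANTCA (the site of AP-1, a stress and growth factor responsive regulator) or CANNTG (the E-box).
Serpinf1, chr11:75422624-75422873, minus strand: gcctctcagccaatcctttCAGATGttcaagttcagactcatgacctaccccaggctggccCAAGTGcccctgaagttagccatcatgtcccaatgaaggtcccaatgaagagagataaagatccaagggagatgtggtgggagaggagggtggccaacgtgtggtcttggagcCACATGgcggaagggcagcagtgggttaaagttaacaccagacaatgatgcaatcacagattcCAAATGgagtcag
Serpinb7, chr1:107422439-107422688, plus strand: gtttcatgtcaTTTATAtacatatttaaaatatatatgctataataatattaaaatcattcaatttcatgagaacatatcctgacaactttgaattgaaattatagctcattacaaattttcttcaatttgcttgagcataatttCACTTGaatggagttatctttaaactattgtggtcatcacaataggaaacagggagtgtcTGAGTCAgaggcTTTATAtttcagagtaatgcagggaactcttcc
Serpinb9b, chr13:33027164-33027413, plus strand: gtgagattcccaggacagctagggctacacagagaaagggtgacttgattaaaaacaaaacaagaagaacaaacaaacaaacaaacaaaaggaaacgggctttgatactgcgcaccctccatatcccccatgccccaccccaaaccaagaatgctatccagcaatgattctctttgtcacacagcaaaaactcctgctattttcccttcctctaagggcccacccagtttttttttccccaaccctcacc

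Serpinb7 had 2 matches to TATAAA, both on the opposite strand, so that the printed line reads TTTATA. The nearer lay at 33 to 28 bases before the start. There was 1 match to TGANTCA, at 45 to 39 bases. Of 32851 promoter windows of that length in the table, 12.4% held TATAAA on either strand and 6.75% held TGANTCA. Of the 16 members at or above the floor with an entry, Serpinb8 was the only other one with TGANTCA, at 23 to 17 bases before the start. Serpinf1 had 4 matches to CANNTG, a sequence found in 66.2% of windows. Serpinb9b had no match to any of the motifs searched. GAANNTTC (the heat shock element, in 6.69% of windows) matched none of these 16 members. TGACNNNGC (the antioxidant response element, in 10.2%) matched Serpinb6a and Serpind1. A match is a description of letters only.

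Against both controls, 4 serpins were called higher on the Mical2-labelled array and none lower. They were the secreted factor gene Serpinf1 and the clade B genes Serpinb1b, Serpinb7 and Serpinb9b. Over all genes that could be called, 0.977% were called higher and 1.75% lower. The Mical3-labelled array had 1 serpin called higher, Serpinb9b, and 2 lower, Serpinb1a and Serpinb7, where all genes gave 1.38% and 2.49%. Over all 40 members the median difference of the Mical2-labelled array was 0.13 against vector cells and 0.19 against untreated cells, with 0.01 and 0.01 over all genes. For the Mical3-labelled array the medians were 0.0 and 0.07, with 0.0 and 0.02 over all genes. These medians take in the 22 serpins that lay below the floor on all 4 arrays.

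Markers of other cell types also differed between the arrays. Of 5 keratinocyte and epithelial markers, the keratin gene Krt14 was called higher on the Mical2-labelled array too (7.28, with 5.11 in vector cells, 6.07 in untreated cells and 7.0 on the Mical3-labelled array). Krt8, another keratin gene, was called lower in vector cells (6.42, with 8.27 untreated, and 8.32 and 8.38 on the Mical2-labelled and Mical3-labelled arrays). Krt5, also a keratin gene, and Epcam were not called, at 5.77 to 5.99 and 6.60 to 7.10. Cdh1, which encodes the epithelial cadherin, stayed below the floor. The probe sets of Krt14, Krt8 and Epcam have a suffix that marks probes not unique to 1 transcript. The summed level of the list (linear levels added, then log2) was 9.42 on the Mical2-labelled array, 9.34 on the Mical3-labelled array, 9.18 in untreated cells and 8.13 in vector cells. Such a sum is set mostly by the brightest probe sets, and Krt8 was brightest except in vector cells. Of 5 leukocyte markers, Cd68, a lysosomal protein of macrophages, was called higher in vector cells (8.0, with 5.93 untreated). Cd3e was not called, at 5.80 to 5.89, and Ptprc, Adgre1 and Cd79a stayed below the floor. The leukocyte list summed to levels between 7.48 in untreated cells and 8.55 in vector cells, and Cd68 was its brightest marker on every array. No call was made among 4 hepatocyte markers. The part of these markers in the serpin results was not tested.

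**Figure D1:**
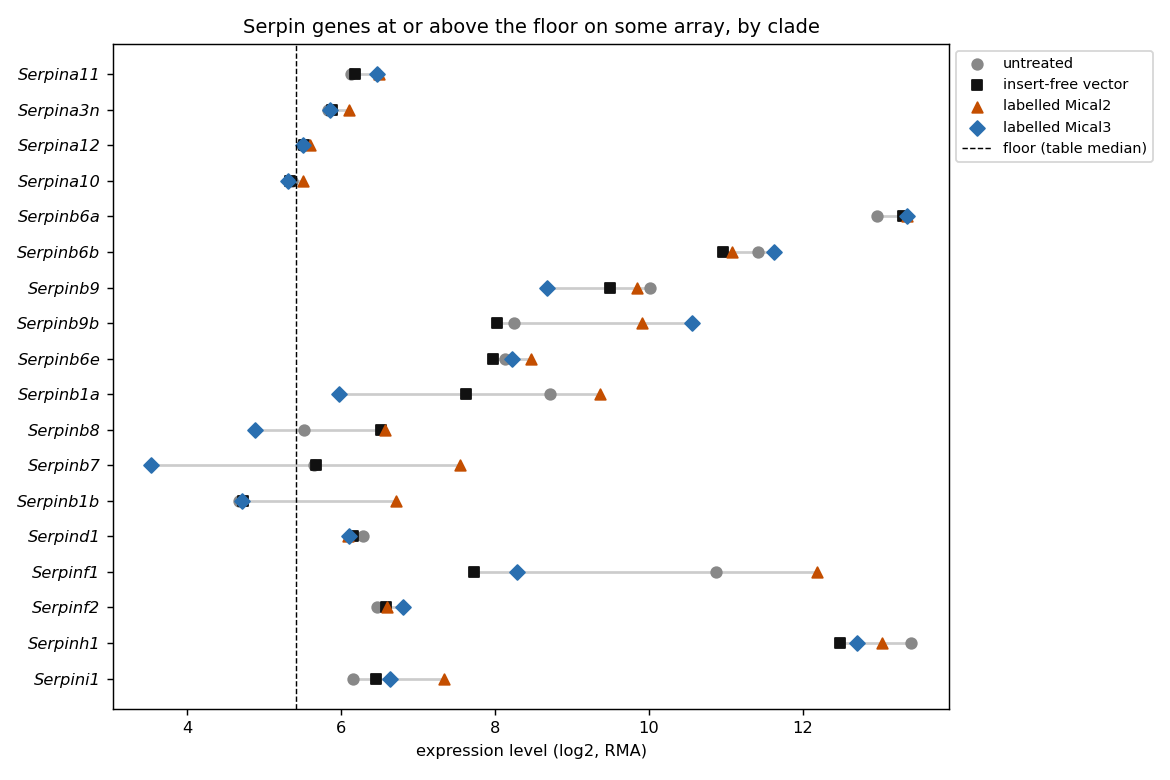
Log2 expression level (horizontal axis) of the 18 serpin genes that reached the floor on some array, grouped by clade, with 1 point per array and a grey line from the lowest to the highest. The dashed line is the floor of 5.41, and the long lines belong to Serpinf1 and to clade B genes such as Serpinb7 and Serpinb1a, while the clade A genes have short ones.

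Serpinf1 encodes pigment epithelium-derived factor, a secreted serpin without inhibitory activity that is known to oppose vessel growth. Its level was 12.19 on the Mical2-labelled array, 10.87 in untreated cells, 8.28 on the Mical3-labelled array and 7.73 in vector cells. The arrays thus fell into a higher pair and a lower pair, with each hairpin array beside a different control. The difference of the Mical2-labelled array was 4.46 (22.0-fold) from the vector array but 1.32 (2.50-fold) from the untreated array, and the gene was called higher. The Mical3-labelled array differed by 0.55 from the vector array and by -2.59 (6.02-fold) from the untreated array, and was not called. Serpinf1 was also called lower in vector cells than in untreated cells, with a difference of -3.14 (8.82-fold). The second probe set gave the same order, at 11.69, 10.17, 8.0 and 7.05.

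Several mesenchymal markers were high and low on the same arrays as Serpinf1. Pdgfra, a receptor of platelet-derived growth factor, read 9.88 on the Mical2-labelled array, 10.40 in untreated cells, 7.07 on the Mical3-labelled array and 6.16 in vector cells. Col3a1, a fibrillar collagen, read 13.25, 13.29, 10.79 and 10.30 in the same order, and Col1a1 12.15, 12.99, 11.27 and 10.95. Col1a2, another fibrillar collagen, read 14.06, 14.49, 6.19 and 11.64, and Pdgfrb 10.71, 10.28, 3.55 and 8.13. The higher and the lower pair of arrays were those of Serpinf1 for these 5 genes, though Col1a2 and Pdgfrb were lowest on the Mical3-labelled array, as was Serpinb1a. Dcn, a small proteoglycan, read 12.27, 12.36, 12.79 and 10.52, without that pairing. The summed level of the 7 listed markers, formed in the same way and set mostly by the brightest probe sets, was 15.2 on the Mical2-labelled array, 15.6 in untreated cells, 13.5 on the Mical3-labelled array and 13.0 in vector cells, and Lum stayed below the floor on all 4. Their part in the Serpinf1 result was not tested.

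Serpinh1, also known as Hsp47, is a chaperone of procollagen in the endoplasmic reticulum and inhibits no protease. It read 13.41 in untreated cells, 13.03 on the Mical2-labelled array, 12.71 on the Mical3-labelled array and 12.49 in vector cells. The same pair of arrays was higher as for Serpinf1, within a range of 0.92, and no comparison called it. The second probe set read 13.22, 12.87, 12.55 and 12.28. The list beside Serpinh1 held 14 measured genes that fold, modify or export procollagen or retrieve residents of the endoplasmic reticulum. All reached the floor, and none was called on either hairpin array against both controls. The shares of all genes called were 2.73% on the Mical2-labelled array and 3.87% on the Mical3-labelled one. P4ha1, a subunit of prolyl hydroxylase, was called lower in vector cells (9.60, with 10.60 untreated), at the exact limit of the rule. Kdelr3, a retrieval receptor of the endoplasmic reticulum, was higher on the Mical2-labelled array than on the Mical3-labelled one (11.69 and 10.66).

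**Figure D2:**
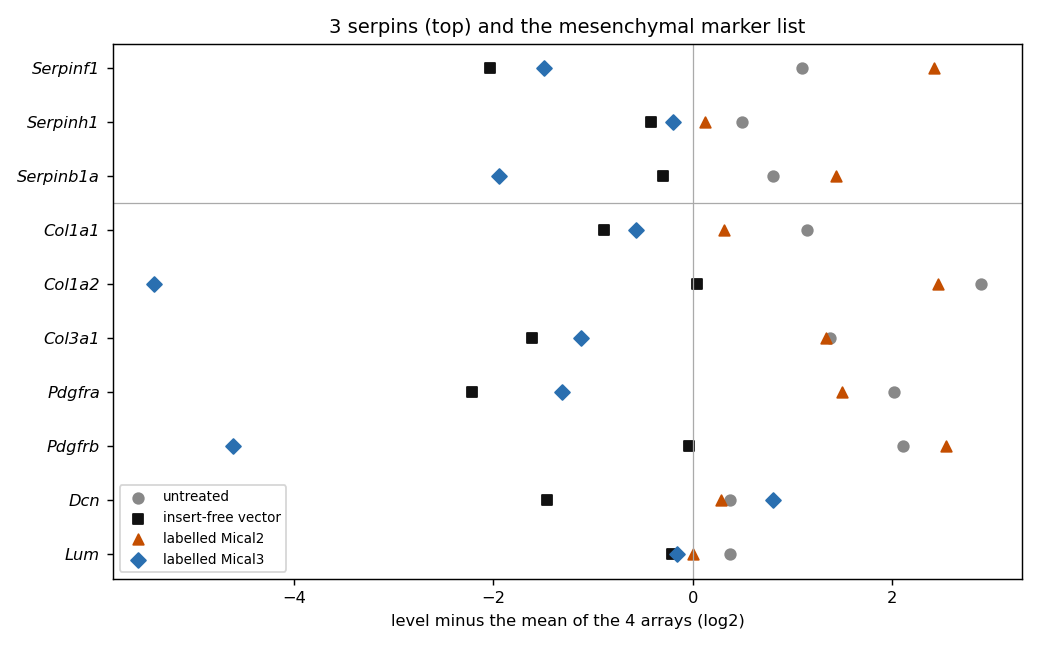
Level of each gene minus its mean over the 4 arrays (horizontal axis, log2) for Serpinf1, Serpinh1 and Serpinb1a above the line and the 7 mesenchymal markers below it, with 1 point per array. For every gene drawn except Dcn, the untreated and Mical2-labelled points lie to the right of the vector and Mical3-labelled points.

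Clade B serpins act inside cells, where they guard against the cell's own or imported proteases. Of 18 members 9 reached the floor on some array. Serpinb7, known as megsin from kidney mesangial cells, read 7.54 on the Mical2-labelled array, 5.68 in vector cells, 5.65 in untreated cells and 3.53 on the Mical3-labelled array. The control arrays differed by 0.03, and the hairpin arrays lay on opposite sides of them. The Mical2-labelled array was higher by 1.86 and 1.89 than the vector and untreated arrays (3.63-fold and 3.71-fold), and the Mical3-labelled array differed by -2.15 and -2.12. The controls were only 0.27 and 0.24 above the floor, and the call on the Mical3-labelled array was lost when levels under the floor were set to it.

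Serpinb8, an inhibitor of the proprotein convertase furin, is near Serpinb7 in the RefSeq gene order of chromosome 1, with Serpinb2 the only other member between them. Serpinb8 read 6.57 on the Mical2-labelled array, 6.52 in vector cells, 5.52 in untreated cells and 4.88 on the Mical3-labelled array. The order of the 4 arrays was that of Serpinb7, but here the vector array stood with the Mical2-labelled array. The vector array was called higher than the untreated array at a difference of 1.0, the exact limit, where 3.26% of all genes were called higher and 2.57% lower. That call was lost after a repeated quantile normalization and after a loess fit. The second probe set, with levels of 5.66, 5.49, 4.01 and 3.46 in that order, had a larger difference of 1.48. Serpinb2, known as plasminogen activator inhibitor 2, stayed below the floor at 4.64 on the Mical2-labelled array and 3.76, 3.90 and 3.63 on the Mical3-labelled, untreated and vector arrays.

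Serpinb1a, an inhibitor of neutrophil elastase and related granule proteases, read 9.36 on the Mical2-labelled array, 8.72 in untreated cells, 7.62 in vector cells and 5.97 on the Mical3-labelled array. All 4 arrays were apart, over a range of 3.39 (10.5-fold). The Mical3-labelled array was called lower, at -1.65 relative to vector cells and -2.75 relative to untreated cells (3.14-fold and 6.73-fold). The vector array was called lower than the untreated array, with a difference of -1.10. The Mical2-labelled array was 1.74 above the vector array but 0.64 above the untreated array, and was not called. A second probe set lay below the floor throughout, at 4.37, 3.95, 3.31 and 3.55 in the same order of arrays. With the mean of both probe sets the differences of the Mical3-labelled array were -0.71 and -1.58, which ended that call, and the call in vector cells was lost too.

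Serpinb1b, a mouse paralog of Serpinb1a, read 6.71 on the Mical2-labelled array and 4.73, 4.71 and 4.67 on the vector, Mical3-labelled and untreated arrays. It was seen above the floor on 1 array only. The differences from the vector and untreated arrays were 1.98 and 2.04, and they came to 1.30 and 1.30 when levels under the floor were set to it. Paralogs in this clade are close copies, so a probe set of one may bind transcripts of another.

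Serpinb9, the inhibitor of granzyme B that protects cytotoxic and other cells, read 10.02 in untreated cells, 9.85 on the Mical2-labelled array, 9.49 in vector cells and 8.68 on the Mical3-labelled array. Its second probe set read 8.56, 7.93, 7.60 and 6.48. By both probe sets the Mical3-labelled array was lowest, but the difference from the vector array was -0.81 by the first and -1.12 by the second, and the gene was not called against both controls. Serpinb9b, a paralog and the next member in the gene order of chromosome 13, read 10.56 on the Mical3-labelled array, 9.91 on the Mical2-labelled array, 8.25 in untreated cells and 8.03 in vector cells. Both hairpin arrays were above both controls. The differences from the vector and untreated arrays were 2.53 and 2.31 for the Mical3-labelled array (5.78-fold and 4.96-fold) and 1.88 and 1.66 for the Mical2-labelled array (3.68-fold and 3.16-fold). On the Mical3-labelled array the neighbours thus lay on opposite sides of the controls.

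The Serpinb6 genes, whose products are cytosolic inhibitors, varied less. Serpinb6a read 12.97 in untreated cells and 13.30, 13.36 and 13.35 on the vector, Mical2-labelled and Mical3-labelled arrays. Serpinb6b read 11.42, 10.96, 11.08 and 11.63 in that order, and Serpinb6e 8.13, 7.97, 8.47 and 8.22. The ranges were 0.39, 0.67 and 0.50, and no comparison called these genes. The probe sets of Serpinb6a and Serpinb6e, like those of Serpinh1 and Serpina10, have a suffix that marks probes not unique to 1 transcript. The other 9 clade B members (Serpinb2, Serpinb3a, Serpinb5, Serpinb6c, Serpinb9c, Serpinb9d, Serpinb9g, Serpinb11 and Serpinb12) lay between 3.22 and 4.64 on all arrays.

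**Figure D3:**
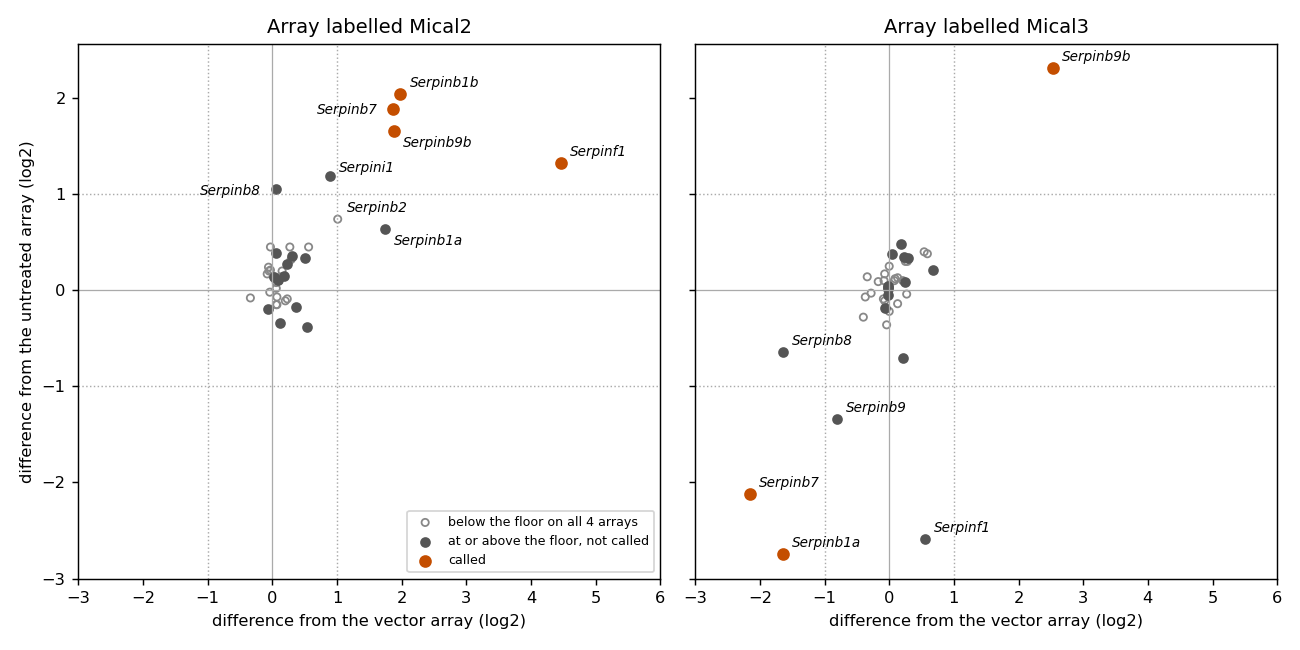
Difference from the vector array (horizontal axis, log2) against difference from the untreated array (vertical axis, log2) for all 40 serpins, on the Mical2-labelled array (left) and the Mical3-labelled array (right), with dotted lines at 2-fold. Called genes are orange, with Serpinf1 at 4.46 and 1.32 on the left and Serpinb9b at 2.53 and 2.31 on the right, and most serpins lie near the origin in both panels.

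Of the proteases that clade B serpins are known to meet, some lay below the floor and others well above it. The list had 18 measured genes for granule and lysosomal proteases and caspases, with the pore protein gene Prf1 among them. Of these, 8 reached the floor, Gzmm on the Mical2-labelled array alone, and none was called in any of the 4 comparisons. Of all 18194 genes, 12167 reached the floor on some array, and 1578 were called in some comparison. Elane, neutrophil elastase, lay between 4.80 and 4.87, Gzmb, granzyme B, between 4.49 and 4.68, and Ctsg, cathepsin G, between 4.15 and 4.21, all below the floor. The lysosomal protease gene Ctsl lay between 13.88 and 14.20, Ctsb between 11.55 and 12.15, and Ctsz between 12.01 and 13.16. The caspase genes Casp1, Casp4 and Casp8 lay between 7.94 and 10.17.

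Set directly against each other, the Mical2-labelled array was called higher than the Mical3-labelled array for 6 serpins and lower for none, where all genes gave 3.81% higher and 3.72% lower. The differences were 4.01 for Serpinb7 (16.1-fold), 3.91 for Serpinf1 (15.0-fold), 3.39 for Serpinb1a, 2.0 for Serpinb1b, 1.69 for Serpinb8 and 1.17 for Serpinb9. Serpinb9b differed by -0.65 and was not called. Over all 40 members the median was 0.20, with 0.0 over all genes. Serpinb7, Serpinb1b and Serpinb8 lay below the floor on the Mical3-labelled array, so their order and fold rest on a level that was not seen. With levels under the floor set to it, their differences were 2.13, 1.30 and 1.16, and all 6 were still called.

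Serpini1, or neuroserpin, is a secreted inhibitor of tissue plasminogen activator. It read 7.34 on the Mical2-labelled array, 6.63 on the Mical3-labelled array, 6.45 in vector cells and 6.15 in untreated cells. The Mical2-labelled array was highest, by 0.89 over the vector array and 1.19 over the untreated array, so it missed the rule for both. A second probe set read 6.12, 5.99, 5.61 and 5.20, and another stayed between 2.83 and 3.09. Serpini2 lay between 3.39 and 3.95.

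Of the genes of plasminogen activation, 9 were measured, 7 reached the floor and none was called in any of the 4 comparisons. Over all genes, 1578 of the 12167 that reached the floor were called in some comparison. Plat, tissue plasminogen activator and the target of Serpini1, lay between 9.49 and 9.77. Plaur, the urokinase receptor, read 10.60 in untreated cells, 10.25 in vector cells, 11.11 on the Mical2-labelled array and 11.16 on the Mical3-labelled array. Plau, urokinase, read 5.38, 4.12, 6.05 and 5.90 in that order. For both genes the hairpin arrays were above both controls, by less than 2-fold from the untreated array.

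**Figure D4:**
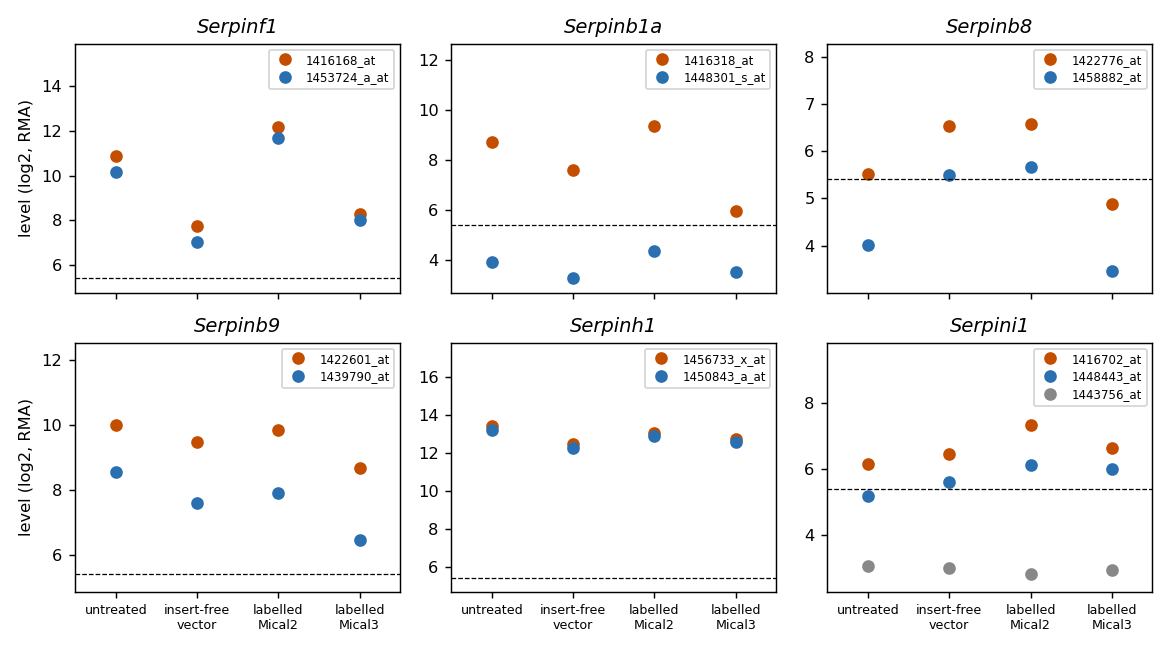
Log2 level (vertical axis) on each of the 4 arrays (horizontal axis) for every probe set of 6 serpins, with the floor dashed. The probe sets of Serpinf1, Serpinh1 and Serpinb9 rank the arrays alike at different levels, the second probe set of Serpinb1a stays below the floor, and another of Serpini1 stays between 2.83 and 3.09.

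The serpins of blood plasma varied little. Serpind1, heparin cofactor II, read 6.28 in untreated cells, 6.16 in vector cells, 6.09 on the Mical2-labelled array and 6.10 on the Mical3-labelled array. Serpinf2, the plasmin inhibitor, read 6.46, 6.58, 6.60 and 6.81 in that order. Neither was called in any comparison. In clade A, Serpina11 read 6.13, 6.18, 6.49 and 6.47, Serpina3n, an acute phase protein, 5.83, 5.88, 6.10 and 5.86, and Serpina12, or vaspin, 5.49, 5.52, 5.60 and 5.50. Serpina10, the protein Z-dependent inhibitor, read 5.36, 5.33, 5.51 and 5.31. These clade A genes had ranges from 0.11 to 0.36 and lay close to the floor.

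The other 10 clade A members, among them the antitrypsin genes Serpina1b and Serpina1c and the hormone carrier genes Serpina6 and Serpina7, lay between 2.85 and 4.91 on all arrays. Serpinc1, antithrombin, lay between 4.77 and 5.13. Serping1, the C1 inhibitor, read 4.36 on the Mical3-labelled array and 3.96, 3.89 and 3.82 on the untreated, Mical2-labelled and vector arrays, all below the floor. Of 22 serpins below the floor on all arrays, Serpinb2 alone had a range of 2-fold or more, at 1.01.

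Genes of pathways in which the plasma serpins act showed a few calls. Of 7 measured complement and contact pathway genes, 5 reached the floor. Masp1, a protease of the lectin pathway, read 6.34 on the Mical3-labelled array and 8.73, 8.96 and 8.15 on the Mical2-labelled, vector and untreated arrays, and was called lower. A second Masp1 probe set read 5.77 on the Mical3-labelled array, with 9.04 in vector and 8.14 in untreated cells. Another read 6.22, with 6.67 and 6.45, short of the rule. C1s1, a protease of the C1 complex, was called higher in vector cells (9.57, with 8.15 untreated). Of 18 coagulation genes 6 reached the floor, and the tissue factor gene F3 was called higher on the Mical3-labelled array (10.51, with 9.22 in vector and 8.94 in untreated cells). Of 7 genes for clearance receptors of serpin complexes, the chaperone gene Lrpap1 included, Lrp1 was called lower there (7.74, with 9.38 and 9.54). Lrp2 was called higher there (5.68, with 3.97 and 4.68). A second Lrp1 probe set was also lowest there (4.60, with 5.01 and 6.03), but less than 2-fold under the vector array. Lrp2 reached the floor on that array alone, and its other 2 probe sets stayed below it, at 3.24 to 3.75 and 4.38 to 4.67. On the Mical2-labelled array none of these lists had a call against both controls. The shares of all genes called were 2.73% on that array and 3.87% on the Mical3-labelled one.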

How the data were processed

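The authors deposited log2 expression levels from RMA (background correction, quantile normalization and summary of probes), per the submitters' processing notes, with 45101 probe sets on each array. The RMA version is not given in the sources used here. Groups came from the condition in the labels.

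Values were used unscaled. Of the probe sets, 34958 have 1 gene symbol, 932 several and 9211 none, and 34754 symbols were updated through Entrez identifiers to RefSeq (GRCm38.p6). The brightest probe set by the mean of the 4 arrays stood for its gene. Every member at or above the floor was named with its 4 levels, the others by range, and called genes of 7 partner lists were named. Members and lists were chosen with earlier results of these data known. The number of arrays limits the precision. Across 5200 genes with 2 probe sets at or above the floor, the standard deviation between probe sets ran from 0.24 to 0.36 by difference. It leaves out the spread between replicates, so it does not give the error. Alternatives covered the floor, fold, probe set, control and scaling. Tools were statsmodels 0.14.6, pandas 2.3.3, numpy 2.4.6 and matplotlib 3.10.9 in Python 3.11.15.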

Additional observations from a re-analysis of the deposited data

How the results depend on the processing

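No paired analysis was possible because each group has 1 array and no result comes from a test. On the Mical2-labelled array the count of 4 serpins called became 2 (Serpinb9b and Serpinf1) with the floor at the 75th percentile. On the Mical3-labelled array the count of 3 became 5 at a minimum of 1.5-fold and 5 against untreated cells alone. The share of all genes called there rose too, from 3.87% to 11.01% at 1.5-fold and 5.67% against untreated cells alone. For the vector array against the untreated array the count of 3 became 1 at 3-fold (Serpinf1). The share of all genes called in that comparison fell from 5.83% to 1.65%. Between the hairpin arrays the count of 6 became 3 with the floor at the 75th percentile. With that floor the share of all genes called changed little. It went from 2.73% to 2.68% on the Mical2-labelled array and from 7.53% to 7.88% between the hairpin arrays. The remaining alternatives gave counts within 1.5 times, but not always of the same members. On the Mical2-labelled array Serpinf1 was lost at 3-fold, Serpinb1a and Serpini1 entered at 1.5-fold, Serpinb1a entered against vector cells alone, and Serpinb8 and Serpini1 against untreated cells alone. On the Mical3-labelled array Serpinb8 entered against vector cells alone, Serpinb7 was lost with the floor at the 75th percentile, and Serpinb1a with averaged probe sets. In vector cells Serpinh1 entered at 1.5-fold, Serpinb1a was lost with averaged probe sets, and Serpinb8 was lost with the higher floor and with either rescaling. Between the hairpin arrays Serpinb9b (lower) and Serpini1 entered at 1.5-fold, and Serpinb9 was lost at 3-fold. Levels under the floor set to it, an alternative chosen after seeing the data, ended the call of Serpinb7 on the Mical3-labelled array. Of 108 differences of the 18 serpins at or above the floor, 9 moved by more than the spread between probe sets when probe sets were averaged (Serpinb1a, Serpinb8, Serpinb9 and Serpini1). Averaging could move only the serpins with more than 1 probe set (Serpina12, Serpinb1a, Serpinb8, Serpinb9, Serpinf1, Serpinh1 and Serpini1). None moved that far under a repeated quantile normalization or a loess fit. The deposited levels were already quantile normalized, so the repeat could move them little. No called difference changed sign under these alternatives. Leaving out probe sets whose suffix marks shared probes dropped Serpina10, Serpinb6a, Serpinb6e and Serpinh1 and kept the same probe set for the other 14, so it could not move their values. Levels near the floor limit Serpinb7, Serpinb8, Serpinb1b and clade A.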

Other observations

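Protease inhibitors outside the serpin family had few calls. Of 26 listed and measured, 14 reached the floor on some array, and none was called on either hairpin array against both controls. With 2.73% of all genes called on the Mical2-labelled array and 3.87% on the Mical3-labelled one, a list this short could hold none at the same share. Tfpi, the inhibitor of the tissue factor pathway, was called lower in vector cells (7.36) than in untreated cells (9.14), with 7.84 on the Mical2-labelled array and 7.62 on the Mical3-labelled array. A second Tfpi probe set read 4.28 in vector cells, 8.07 in untreated cells, 6.03 on the Mical2-labelled array and 3.42 on the Mical3-labelled array, so the untreated array was highest by both. Timp3, an inhibitor of metalloproteases, read 14.18 on the Mical2-labelled array, 13.90 in untreated cells, 13.63 on the Mical3-labelled array and 13.36 in vector cells, the order of Serpinf1 within a range of 0.82. Reck, a membrane-anchored inhibitor of metalloproteases, read 6.30 on the Mical2-labelled array and 7.0, 7.37 and 6.89 on the untreated, vector and Mical3-labelled arrays. Timp3 and Reck were named after their values were seen.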
